A study of Mus musculus with 18 samples.

Results

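The nuclear genes of the mitochondrial respiratory chain were followed in mouse natural killer (NK) cells from lines in which Hif1a, Ahr or both were targeted for deletion. Hif1a encodes the subunit of the factor HIF-1 that oxygen regulates, and Ahr encodes the aryl hydrocarbon receptor. Members were taken by symbol: every gene whose name begins with Nduf, Uqcr, Cox5, Cox6, Cox7, Cox8 or Atp5, together with Sdha, Sdhb, Sdhc, Sdhd, Cyc1 and Cycs, leaving out Ndufa4, Ndufa4l2 and pseudogenes. Of 56953 gene identifiers in the files, 96 met the naming rule and 87 had a mean of at least 1 CPM (counts scaled to a common library size) over all libraries. These 87 members comprised 37 of complex I, 4 of complex II, 9 of complex III, 11 of complex IV, 17 of complex V, cytochrome c itself (Cycs), and 8 Ndufaf genes. The Ndufaf genes encode factors that assemble complex I and are not subunits of it, so they are given apart.

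Electrons from NADH enter the chain at complex I (NADH dehydrogenase) and those from succinate enter at complex II (succinate dehydrogenase, also an enzyme of the citric acid cycle). Ubiquinone carries them to complex III (cytochrome bc1), cytochrome c carries them to complex IV (cytochrome c oxidase), which reduces oxygen, and the proton gradient built on the way drives complex V (ATP synthase). Most subunits are encoded in the nucleus and a small set in mitochondrial DNA, and both must be assembled together. In many cell types HIF-1, the transcription factor that holds Hif1a, lowers the use of the chain in low oxygen.

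RNA sequencing was done on primary NK cells from mouse spleen, kept for 7 days in 1% O2 with recombinant human interleukin 2 at 1700 U/ml. The labels give 3 lines, each of loxP-flanked (flox) cells beside cells that also carry Ncr1 iCre (KO). The genotypes were Hif1a fl/fl (Hif1a flox) and Ncr1 iCre with Hif1a fl/fl (Hif1a KO). In the next line they were Ahr fl/f, as the label spells it (Ahr flox), and Ncr1 iCre with Ahr fl/fl (Ahr KO). In the last they were Hif1a fl/fl with Ahr fl/f (Hif1a Ahr flox) and Ncr1 iCre with Hif1a fl/fl and Ahr fl/fl (Hif1a Ahr KO). Each of the 6 groups holds 3 libraries called biological replicates, 18 in all, with totals of 54420649 to 55732940 estimated counts. All groups share the hypoxic culture, and none was kept in normal oxygen. Ncr1 encodes the NK receptor NKp46, so iCre is active in cells that have switched this gene on. Cre is on the KO side of every line and no group has Cre alone, so an effect of Cre cannot be told apart from that of the deletion.

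Gene-level Hif1a counts were higher, not lower, in the libraries labelled Hif1a KO (182, 147 and 211 CPM, against 64.9, 59.5 and 56.5 in Hif1a flox) and Hif1a Ahr KO (185, 220.01 and 170.4 against 58.2, 58.7 and 62.4). Ahr stood at 90.7, 88.6 and 97.03 CPM in Ahr KO and 73.9, 77.03 and 78.5 in Ahr flox, and at 57.05, 41.4 and 68.2 in Hif1a Ahr KO and 78.1, 52.2 and 68.8 in Hif1a Ahr flox. Ncr1 was higher in each KO group (log2 change 0.92 ± 0.10, 0.97 ± 0.10 and 1.06 ± 0.10). Counts per gene also take in transcripts from a recombined allele, so these values check neither deletion and the group names follow the labels. The 14 NK marker genes summed to between 22823 and 41810 CPM (30717 to 36042 in Hif1a flox and 22823 to 25377 in Hif1a KO, 29306 to 38920 in Ahr flox and 35573 to 41810 in Ahr KO, 29408 to 34412 in Hif1a Ahr flox and 26737 to 27829 in the KO group of that line), while B cell, neutrophil and erythroid marker lists summed to at most 1.18, 5.03 and 0.526 CPM. The 10 T cell markers summed to 294 to 331 CPM in Hif1a flox and 171 to 194 in Hif1a KO, to 300.5 to 311 in Ahr flox and 222 to 279 in Ahr KO, and to 312 to 338 in Hif1a Ahr flox and 267 to 294 in its KO group, with 4, 2 and 2 of 10 lower in the KO group, Cd3d and Cd3g in each, and 0 higher. The median log2 change of the 10 was -0.38 in Hif1a KO, 0.48 in Ahr KO and 0.13 in Hif1a Ahr KO. In the last 2 the sum fell while the median fitted change lay above 0. The 6 macrophage and monocyte markers summed to 72.3 to 175.6 CPM over the 18 libraries, 102 to 159.9 in Hif1a flox and 90.96 to 112 in Hif1a KO, 126 to 144 in Ahr flox and 137 to 176 in Ahr KO, and 86.7 to 125 and 72.3 to 87.9 in the last line. The 6 markers of other innate lymphoid cells (ILC1, ILC2 and ILC3) summed to 248 to 275 CPM in Hif1a flox and 86.1 to 132 in Hif1a KO, to 279 to 339 in Ahr flox and 342 to 351 in Ahr KO, and to 199 to 235 in Hif1a Ahr flox and 59.2 to 93.3 in its KO group. The flox and KO sums of these 6 did not overlap in any line, and neither did those of the T cell markers. The NK sums did not overlap in the lines targeted for Hif1a. Of the 6, 1 rose and 1 fell in Hif1a KO, 1 fell in Ahr KO, and 1 rose and 3 fell in Hif1a Ahr KO. Of the 14 NK markers, 5 rose and 7 fell in Hif1a KO. In Ahr KO 2 NK markers rose, and in Hif1a Ahr KO 4 rose and 1 fell. Of 5 tested macrophage and monocyte markers 1 rose and 4 fell in Hif1a KO. In Ahr KO 1 of these fell, and in Hif1a Ahr KO 3 did. Of all genes tested 35.4, 6.92 and 31.3% passed an adjusted p of 0.05 in Hif1a KO, Ahr KO and Hif1a Ahr KO. In that order it was 85.7, 14.3 and 35.7% of NK markers and 40, 20 and 20% of T cell markers. For macrophage and monocyte markers it was 100, 20 and 60%, and for those of other innate lymphoid cells 33.3, 16.7 and 66.7%. The part of these markers in the results below was not tested, and in such bulk samples fewer cells of a type and less RNA per cell cannot be told apart.

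The promoters of 4 members are shown because Hif1a and Ahr act as transcription factors: HIF-1 recognises ACGTG or GCGTG cores and the Ahr complex recognises GCGTG. Ndufv3 and Cox7a1 had the largest falls in both lines targeted for Hif1a, and the rises of Sdhb and Cox7a2l in Hif1a KO were called with any 1 library of that line left out. The same held for the rises of Ndufaf2 and Ndufaf5, whose windows are not shown. The sequences are the 250 bases before the start of each gene from RefSeq (GRCm38.p6), read 5′ to 3′ on the gene's strand, at chr17:31519865-31520114 (plus strand) for Ndufv3, chr7:30183921-30184170 (plus) for Cox7a1, chr4:140961021-140961270 (plus) for Sdhb and chr17:83514334-83514583 (minus) for Cox7a2l. Capitals mark GCGTG or its reverse complement CACGC, and ACGTG or CACGT would be marked likewise.
Ndufv3: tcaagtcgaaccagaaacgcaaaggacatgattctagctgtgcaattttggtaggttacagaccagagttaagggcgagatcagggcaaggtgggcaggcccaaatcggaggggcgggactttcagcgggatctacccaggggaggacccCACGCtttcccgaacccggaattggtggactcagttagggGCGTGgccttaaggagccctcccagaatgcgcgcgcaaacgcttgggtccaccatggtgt
Cox7a1: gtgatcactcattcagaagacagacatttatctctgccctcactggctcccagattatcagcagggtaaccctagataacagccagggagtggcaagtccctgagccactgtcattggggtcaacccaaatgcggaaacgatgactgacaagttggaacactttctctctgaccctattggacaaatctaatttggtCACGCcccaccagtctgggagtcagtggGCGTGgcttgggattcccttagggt
Sdhb: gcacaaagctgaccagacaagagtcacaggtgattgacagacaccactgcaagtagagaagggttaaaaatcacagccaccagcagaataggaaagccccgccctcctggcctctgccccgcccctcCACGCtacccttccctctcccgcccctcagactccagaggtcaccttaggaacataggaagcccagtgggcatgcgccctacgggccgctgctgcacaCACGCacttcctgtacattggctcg
Cox7a2l: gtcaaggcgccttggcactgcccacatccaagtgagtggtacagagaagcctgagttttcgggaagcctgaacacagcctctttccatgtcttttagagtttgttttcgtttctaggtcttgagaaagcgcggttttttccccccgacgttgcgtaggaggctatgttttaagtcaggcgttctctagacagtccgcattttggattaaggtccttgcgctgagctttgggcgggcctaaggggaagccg

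GCGTG occurred on either strand 2 times in the windows of Ndufv3, Cox7a1 and Sdhb and not in that of Cox7a2l, and ACGTG in none of these 4. Of the 4 shown, the GCGTG core was found before both genes that fell and before 1 of the 2 that rose. These genes were picked, and others rose as stably, so this does not compare falling with rising members. Of the 73 members with an entry in the RefSeq promoter table, 43.8% held GCGTG, against 43.5% of 11040 genes that were tested and had an entry, and 28.2% of all 27025 promoters. For ACGTG the shares were 21.9%, 21.4% and 16.6% of windows. The 2 cores differ in their first letter, and matches on opposite strands can overlap. GCGC followed after any 2 letters by another GCGC, the frame of the site of the respiratory factor NRF1 and alike on both strands, was in 20.5% of members, 10.2% of tested genes and 5.09% of all promoters. CCGGAAG, read by GABPA and other ETS factors and searched on both strands, was in 17.8%, 13.6% and 7.05%. Mean GC content of these windows was 57.2% in members, 59.2% in tested genes and 53% over all promoters. A match describes letters in the window and does not show binding.

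The members differed far more in level than in response. Per kilobase of transcript, the median over the libraries' mean was 231 CPM for complex IV, 194 for complex V, 86.3 for complex III, 83.2 for complex II, 64.5 for complex I, 29.8 for cytochrome c and 12.3 for the Ndufaf factors. Complex V held the highest member, the catalytic beta subunit Atp5b (540.0 CPM per kb), as well as Atp5s, a coupling factor (4.03). In complex IV the range ran from Cox6b1 (334) to Cox7a1 (5.95), in complex I from Ndufa3 (128) to Ndufb2 (6.99), in complex III from Uqcrh (324) to Uqcrq (52.3), in complex II from Sdhd (88.2) to Sdhc (32.8), and among assembly factors from Ndufaf7 (16.9) to Ndufaf6 (3.76). These values rest on the annotated transcript length. It was 4371 nt for Ndufb2 and 1521 nt for Uqcrq, against medians of 908 nt in complex I and 1363 nt in complex III. Neither gene was the lowest of its complex in CPM. In CPM not divided by length, the means over 18 libraries were highest for Atp5b (1035), Sdha (253), Cox6b1 (206), Uqcrh (177) and Ndufaf7 (29.6) in their complexes or group and lowest for Atp5s (6.44), Sdhb (90.6), Cox7a1 (2.34), Uqcr11 (48.98), Ndufb4 (13.02) and Ndufaf6 (4.06) in theirs.

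Across the 6 groups the members were steady. The range between the highest and the lowest group mean had a median of 0.30 on the log2 scale over the 87 members, 0.38 over the 10809 other genes tested within the members' range of level, and 0.54 over all 16747 genes tested. Only Cox7a1 (1.95) and Ndufv3 (1.255) ranged over more than 1, 2.30% of members against 12.5% of the other genes within the members' range of level. Those genes were bounded by the lowest and highest member and not matched to the members' levels. Sdhc (0.10) and Sdhd (0.12), the membrane anchors of complex II, ranged least. As a share of all counts the members made up 0.922% ± 0.0130 (SD, n = 3) in Hif1a flox and 1.04% ± 0.00761 in Hif1a KO, 0.895% ± 0.0226 in Ahr flox and 0.839% ± 0.0229 in Ahr KO, and 0.973% ± 0.0769 in Hif1a Ahr flox and 1.00% ± 0.0273 in the KO group beside it. The shares of the Hif1a pair did not overlap, nor did those of the Ahr pair, and those of the last pair did.

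**Figure D1:**
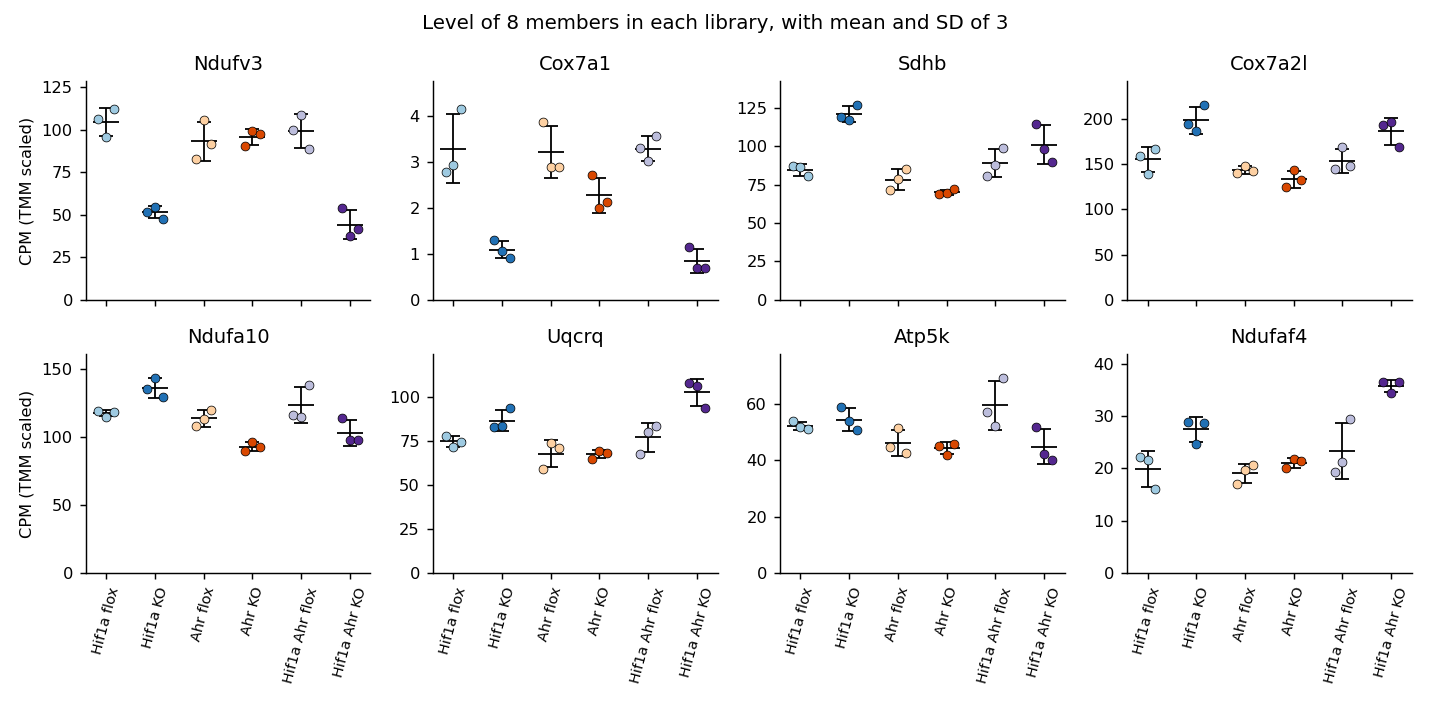
CPM after TMM scaling (vertical axis, from 0) of 8 members in each of the 18 libraries, by group, with the mean and SD of 3 libraries. Ndufv3 and Cox7a1 are low in both KO groups targeted for Hif1a, Sdhb and Cox7a2l are high in Hif1a KO, and Ndufa10 is high in Hif1a KO and low in Ahr KO.

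The Hif1a comparison asks which members change in hypoxic NK cells when Hif1a is deleted and Ahr is kept. Of 87 members 15 (17.2%) passed an adjusted p of 0.05, 12 higher and 3 lower, while 35.4% of all genes tested did, 17.6% higher and 17.8% lower. With this main scaling the members' share was thus below the background. Their median log2 change was 0.08, against -0.01 for all genes, and 59 of 87 (67.8%) lay above 0, against 49% of all genes. For 80 of 87 the 95% interval stayed within a 1.5-fold change either way. Such intervals were not counted for other genes in any comparison. The median of complex I was 0.08, of complex II 0.07, of complex III 0.05, of complex IV 0.07, of complex V 0.06 and of the Ndufaf factors 0.20. When libraries were scaled by total counts alone, the median over all genes moved from -0.01 to 0.09, the share of called genes that were higher from 49.8% to 65.6%, and the members called from 12 higher and 3 lower to 36 higher and 2 lower. By total counts 6272 of the 16747 genes tested were called, in place of 5923, and the members' share was not below the background. The 12 higher calls became 5 without Hif1a flox replicate 3, 6 without flox replicate 2 or KO replicate 3, 7 without flox replicate 1 or KO replicate 1, and 8 without KO replicate 2.

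**Figure D2:**
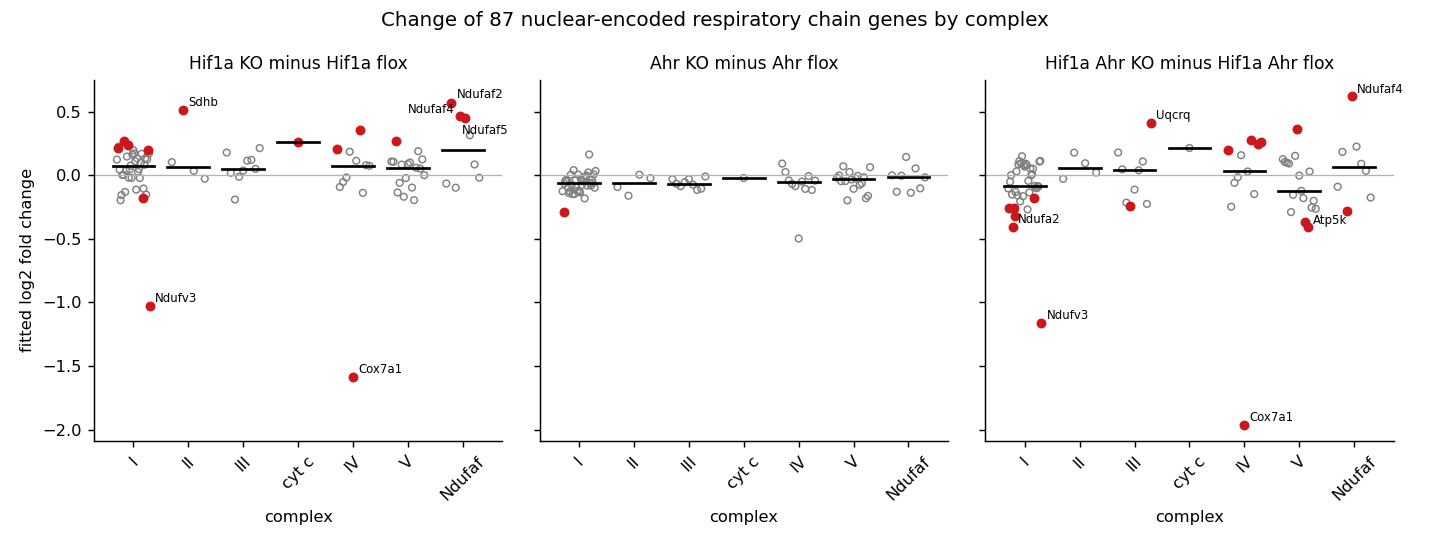
Fitted log2 fold change (vertical axis) of each of the 87 members by complex in the 3 comparisons. Filled points passed an adjusted p of 0.05, open points did not, and bars mark the median. Most members lie near 0 in each comparison, and Ndufv3 and Cox7a1 lie more than 1 below it in both lines targeted for Hif1a.

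In complex I the largest fall was that of Ndufv3, an accessory subunit of the module that takes up NADH. It stood at 106, 95.8 and 112 CPM in the 3 Hif1a flox libraries and at 51.8, 54.9 and 47.7 in Hif1a KO (log2 change -1.03 ± 0.12, adjusted p = 4.08e-06). Every KO library was at about the same level, far below all flox libraries. The call held with any 1 of the 6 libraries left out (highest adjusted p = 5.95e-05). Ndufv1 and Ndufv2, its partners in the same module, were at 0.20 ± 0.07 (adjusted p = 0.0472) and 0.17 ± 0.07 (0.0641), so that the accessory subunit fell while a catalytic subunit rose slightly.

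The other complex I members that passed had small changes. Ndufa10, an accessory subunit of the membrane arm, rose from 119, 115 and 119 to 135, 143 and 129 CPM (log2 change 0.21 ± 0.08, adjusted p = 0.0384), with no overlap. Ndufa6 (0.27 ± 0.10, adjusted p = 0.0468), Ndufab1, the mitochondrial acyl carrier protein (0.24 ± 0.09, 0.0428), and Ndufv1, which binds NADH, rose too. Ndufs3, a core subunit of the arm that leads to ubiquinone, fell from 61.5, 59.5 and 60.8 to 53.7, 53.9 and 52.6 CPM (-0.18 ± 0.06, adjusted p = 0.0233). These 5 calls were not stable: each was lost in at least 5 of the 6 fits that left out 1 library of the line, with adjusted p up to 0.147, 0.193, 0.172, 0.122 and 0.0756 in turn. Only leaving out Hif1a KO replicate 3 (Ndufa10), Hif1a KO replicate 1 (Ndufa6), Hif1a KO replicate 2 (Ndufab1) or Hif1a flox replicate 2 (Ndufs3) kept one. Ndufs3 was also lost by total counts alone. With the replicate number as a block, which pairs the libraries of this line, Ndufa6 and Ndufab1 were no longer called (adjusted p = 0.0715 and 0.0512). Those that passed with the block included Ndufv2 (0.0426), Cyc1 of complex III (0.0435) and Cox6c of complex IV (0.0333). The smallest fitted change of complex I was that of Ndufa3 (0.00 ± 0.09).

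Complex II changed in 1 of its 4 subunits. Sdhb, which carries the iron-sulfur clusters between the flavoprotein and the membrane, stood at 86.9, 86.4 and 80.3 CPM in Hif1a flox and at 119, 117 and 127 in Hif1a KO (0.51 ± 0.09, adjusted p = 0.000171). All KO libraries were above all flox libraries, and the call held in each of the 6 fits without 1 library (highest adjusted p = 0.00172). The flavoprotein Sdha was at 0.10 ± 0.05 (adjusted p = 0.141) and the anchors Sdhc and Sdhd at 0.03 ± 0.06 (0.705) and -0.03 ± 0.06 (0.778). For these 3 the 95% intervals, -0.01 to 0.21, -0.09 to 0.16 and -0.16 to 0.11, lie below the value of Sdhb.

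In complex III 0 of 9 members passed by edgeR, DESeq2 or limma voom, with 2 at an unadjusted p under 0.05. The largest fitted change was that of Uqcrq, a small subunit (0.21 ± 0.09, adjusted p = 0.0718), and the smallest that of Uqcrb (-0.01 ± 0.09). Cytochrome c, encoded by Cycs, rose from 89.1, 91.3 and 80.98 to 100.3, 100.01 and 114 CPM (0.26 ± 0.10, adjusted p = 0.0449), and its groups did not overlap. This call was lost whichever library was left out (adjusted p up to 0.182).

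In complex IV the isoform Cox7a1, known from heart and skeletal muscle, fell from 2.78, 2.94 and 4.16 to 1.3, 1.07 and 0.919 CPM (-1.58 ± 0.22, adjusted p = 2.38e-05). Its level is low, and even so no KO library reached the lowest flox library. The call held without any 1 library (highest adjusted p = 0.000281). Per kilobase, Cox7a1 made up 2.96, 3.31 and 4.37% of Cox7a1 plus Cox7a2, its widely expressed sister, in Hif1a flox and 1.29, 1.15 and 0.926% in Hif1a KO. Cox7a2 itself was at 0.11 ± 0.07 (adjusted p = 0.263), so the change concerns a minor part of this subunit pair's transcripts.

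Cox7a2l, related to Cox7a and known as a factor that joins complexes III and IV into supercomplexes, rose from 159, 139 and 167 to 195, 186 and 215 CPM (0.36 ± 0.08, adjusted p = 0.00269). The groups did not overlap, and the call held in all 6 fits without 1 library (highest adjusted p = 0.0201). Cox5a rose by less (0.20 ± 0.07, adjusted p = 0.0251), a call that was lost without Hif1a flox replicate 2 or 3 or Hif1a KO replicate 1 or 3 (up to 0.123). The smallest fitted change of complex IV was that of Cox6b1 (-0.02).

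In complex V, Atp5c1, the gamma subunit that forms the rotating stalk, was the sole member called of 17. It rose from 240.3, 221 and 228 to 279, 262 and 289 CPM (0.27 ± 0.08, adjusted p = 0.0115), without overlap, and was lost only without Hif1a KO replicate 3 (adjusted p = 0.0527). The beta and alpha subunits Atp5b and Atp5a1, the highest members in CPM not divided by length, were at 0.11 ± 0.07 (0.252) and 0.11 ± 0.06 (0.189), and Atp5s had the smallest fitted change (0.00).

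Among the 8 complex I assembly factors 3 rose. Ndufaf2, a chaperone of late assembly, went from 9.79, 10.5 and 8.81 to 14.9, 13.9 and 14.3 CPM (0.56 ± 0.12, adjusted p = 0.00137). Ndufaf5, an enzyme that modifies the core subunit Ndufs7, went from 10.5, 11.4 and 9.77 to 14.6, 14.1 and 14.7 (0.45 ± 0.09, adjusted p = 0.000652). Both had KO libraries above all flox libraries and held without any 1 library (highest adjusted p = 0.0108 and 0.00587). Ndufaf4 rose from 22.1, 21.6 and 16.01 to 28.9, 24.7 and 28.8 CPM (0.46 ± 0.14, adjusted p = 0.0135), and without Hif1a flox replicate 3, its lowest library, the adjusted p was 0.0777. Ndufaf8, which works with Ndufaf5, had the smallest fitted change (-0.02 ± 0.09).

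The Ahr comparison asks the same of Ahr in cells that keep Hif1a. A single member passed, 1.15% of 87, against 6.92% of all genes tested (2.14% higher and 4.78% lower). That member, Ndufa10, fell from 108, 113 and 119.6 to 89.8, 96.2 and 92.8 CPM (-0.29 ± 0.08, adjusted p = 0.0276), without overlap. The call was kept when Ahr flox replicate 1 was left out and lost when any of the other 5 libraries was (adjusted p up to 0.141). By edgeR, DESeq2 and limma voom 0 members were higher, and 6 of 87 had an unadjusted p under 0.05 in either direction.

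Fitted changes in Ahr KO were small and mostly below 0. Their median over the members was -0.05, against 0.00 for all genes tested, and 72 of 87 lay below 0, against 8306 of all 16747 genes tested. By complex the medians were -0.06 for I, -0.06 for II, -0.07 for III, -0.05 for IV, -0.03 for V and -0.01 for the Ndufaf factors. The median deviation of the members from their own mean was -0.15, -0.03 and -0.04 in the Ahr flox libraries and -0.17, -0.13 and -0.08 in Ahr KO. Ahr flox replicate 1 lay as low as the KO libraries, so the groups overlapped, while within each of the 3 same-numbered pairs the KO library was the lower. For 86 of 87 members the 95% interval stayed within 1.5-fold. The member with the largest fitted change, Cox7a1, stood at 3.87, 2.91 and 2.89 CPM in Ahr flox and 2.71, 1.99 and 2.14 in Ahr KO (-0.50 ± 0.21, adjusted p = 0.18). Beyond these, the largest fitted change was -0.16 for Sdhb in complex II (0.322), -0.12 for Uqcrfs1, the Rieske protein, in complex III (0.275), -0.20 for Atp5f1 in complex V (0.118), and 0.14 for Ndufaf4 (0.632). The smallest fitted changes were those of Ndufs1 (0.00), Sdhc (0.00), Uqcrq (-0.01), Cox7b (-0.01), Atp5b (0.00) and Ndufaf1 (0.00). Ndufv3 was at 82.9, 106 and 91.7 CPM in Ahr flox and 90.2, 99.2 and 97.2 in Ahr KO, with overlapping groups (0.03 ± 0.12, adjusted p = 0.917).

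**Figure D3:**
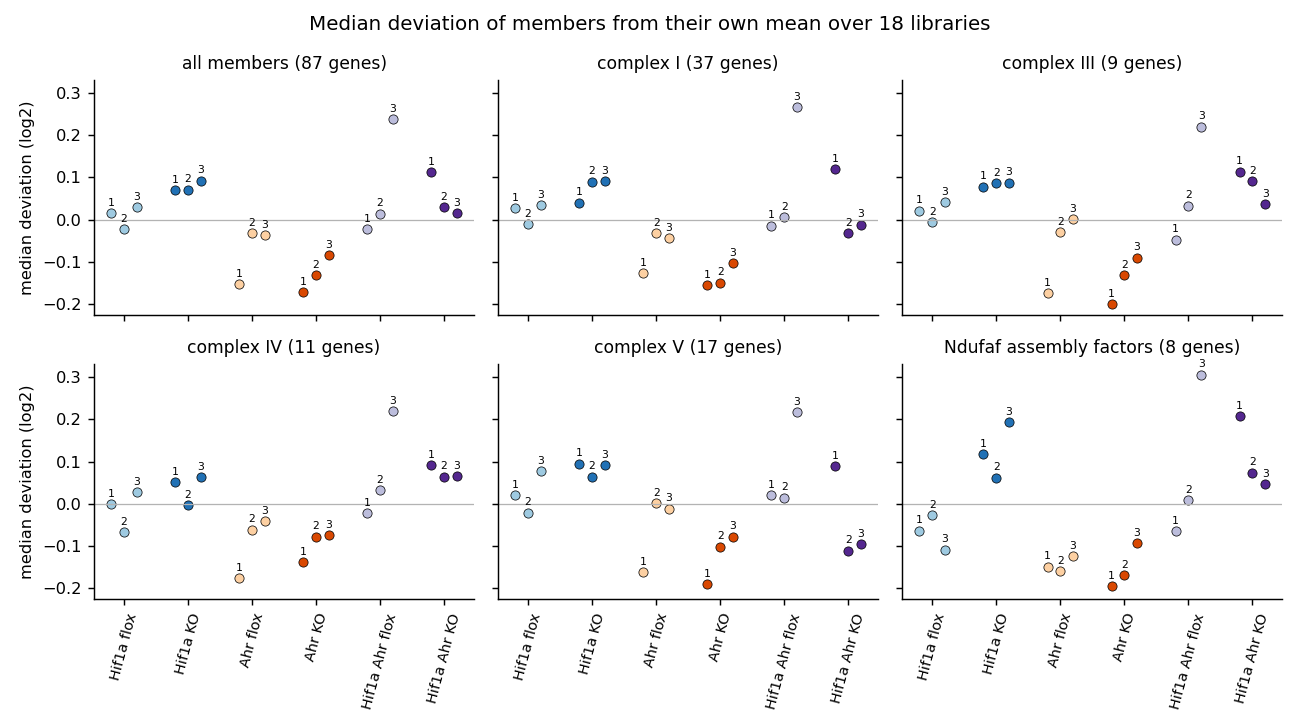
Median deviation (log2, vertical axis) of the members of a set from their own mean over 18 libraries, 1 point per library with its replicate number. Hif1a KO lies above Hif1a flox over all members, the Ahr groups overlap, and Hif1a Ahr flox replicate 3 stands above both others of its group in all 6 panels.

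The third line is targeted for both genes, and its KO group carries Cre with both genes loxP-flanked. Here 18 of 87 members (20.7%) passed, 7 higher and 11 lower, against 31.3% of all genes tested (14.8% higher and 16.5% lower). The median change of the members was 0.00 and that of all genes -0.02, and 80 of 87 had an interval within 1.5-fold. The medians were -0.08 for complex I, 0.06 for II, 0.04 for III, 0.03 for IV, -0.12 for V and 0.06 for the Ndufaf factors.

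In this line 2 libraries stood apart, and the counts moved by over 1.5 times in at least 1 direction with any of its 6 libraries left out. Hif1a Ahr flox replicate 3 had a median deviation of 0.24 over the members, against -0.02 and 0.01 in the other two flox libraries, and Hif1a Ahr KO replicate 1 had 0.11, against 0.03 and 0.02. Without that flox library 21 members were higher and 4 lower, and without that KO library 5 were higher and 27 lower. Without both, an alternative chosen after seeing the data, 20 were higher and 19 lower. The counts also fell to 3 higher and 3 lower without Hif1a Ahr KO replicate 2, to 4 lower without Hif1a Ahr KO replicate 3, and to 3 higher without Hif1a Ahr flox replicate 1 or 2. Ndufv3, Cox7a1, Uqcrq, Atp5k and Ndufaf4 passed in each of the 6 fits without 1 library and in the fit without both. Fitted on only the 6 libraries of the line, Atp5k was not called, while Ndufv3, Cox7a1, Uqcrq and Ndufaf4 were.

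Ndufv3 was at 99.7, 109 and 88.9 CPM with both genes loxP-flanked and at 53.9, 37.4 and 41.6 in the KO group (-1.16 ± 0.12, adjusted p = 1.1e-06). Cox7a1 went from 3.31, 3.02 and 3.57 to 1.15, 0.692 and 0.699 CPM (-1.96 ± 0.23, adjusted p = 3.16e-06), or per kilobase from 3.51, 3.165 and 3.26% to 1.06, 0.733 and 0.735% of Cox7a1 plus Cox7a2. For both genes the KO libraries lay far below the flox libraries, as in the line targeted for Hif1a alone. Ndufaf4 rose from 19.3, 21.2 and 29.4 to 36.4, 34.5 and 36.5 CPM (0.62 ± 0.14, adjusted p = 0.00212), and Uqcrq, a subunit of complex III, from 67.6, 80.2 and 83.5 to 108, 106 and 93.9 (0.41 ± 0.09, adjusted p = 0.00166). Neither gene's groups overlapped, although Hif1a Ahr flox replicate 3 was the highest flox library of both. Atp5k, the small e subunit of the membrane part of ATP synthase, fell from 57.2, 52.3 and 69.1 to 51.9, 42.3 and 40.3 CPM (-0.41 ± 0.10, adjusted p = 0.00574), and its highest KO library came just below its lowest flox library.

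The remaining 8 falls were spread over complexes I, III and V and an assembly factor. In complex I these were Ndufa2 (-0.41 ± 0.12, adjusted p = 0.0133), Ndufa10 (-0.26 ± 0.08, adjusted p = 0.0147), Ndufa3 (-0.26 ± 0.09, adjusted p = 0.0312), Ndufs3 (-0.18 ± 0.06, adjusted p = 0.0322) and Ndufa5 (-0.32 ± 0.11, adjusted p = 0.0389). Ndufa2 may serve as the example, with 44.8, 48.3 and 53.7 CPM in flox and 46.5, 32.6 and 31.5 in KO, where KO replicate 1 lay among the flox libraries. Ndufa3 lies on chromosome 7 with 19 coding genes between it and Ncr1, the gene for which the Cre line is named, and an effect of sequence linked to Cre cannot be told apart from that of the deletion there. Uqcrb of complex III (-0.24 ± 0.09, adjusted p = 0.0482), Atp5j2, the f subunit of complex V (-0.37 ± 0.10, adjusted p = 0.00908), and Ndufaf3 (-0.28 ± 0.09, adjusted p = 0.0248) fell as well. None of these 8 calls was stable. All were lost without Hif1a Ahr KO replicate 2, all except Ndufaf3 without KO replicate 3, all except Atp5j2 without flox replicate 3, Ndufa3 and Uqcrb also without flox replicate 1, and Ndufaf3 also without KO replicate 1. Over these fits the adjusted p reached 0.0772 for Ndufa2, 0.091 for Ndufa10, 0.144 for Ndufa3, 0.168 for Ndufs3, 0.306 for Ndufa5, 0.26 for Uqcrb, 0.0652 for Atp5j2 and 0.145 for Ndufaf3. Without both flox replicate 3 and KO replicate 1, Ndufa5, Ndufs3 and Ndufaf3 were not called. By total counts alone Ndufa3, Ndufa5, Ndufs3, Uqcrb and Ndufaf3 were not called either, and Uqcrb was also lost with DESeq2 size factors.

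The other rises were in complex IV and in 1 gene of complex V. Cox7a2l went from 144, 169 and 148 to 193, 196 and 169 CPM (0.28 ± 0.08, adjusted p = 0.0172), and Cox8a, the widely expressed form of its subunit, from 169.5, 166 and 181 to 189.8, 224 and 203 (0.26 ± 0.07, adjusted p = 0.0127). Cox7c rose from 165, 168 and 196 to 188, 224 and 217 (0.25 ± 0.07, adjusted p = 0.0126), with KO replicate 1 below flox replicate 3, and Cox5a from 119.6, 121 and 140.3 to 146, 147 and 145 (0.20 ± 0.07, adjusted p = 0.0311). All 4 lost the call without Hif1a Ahr KO replicate 2. Cox8a lost it also without flox replicate 2 (adjusted p up to 0.0889), Cox7a2l without flox replicate 1 or 3 or KO replicate 1 (0.0795), Cox7c without flox replicate 1 or 2 or KO replicate 3 (0.0762), and Cox5a without all libraries of the line but flox replicate 3, each left out alone (0.129). Cox7a2l was not called without both flox replicate 3 and KO replicate 1. Atp5g2, 1 of 3 genes for the c ring of ATP synthase, rose from 7.84, 7.12 and 8.57 to 8.1, 12.2 and 9.97 CPM (0.36 ± 0.13, adjusted p = 0.0404), with overlapping groups and a call lost without flox replicate 1 or 2 or KO replicate 2 or 3 (up to 0.274). Its sisters Atp5g1 and Atp5g3 were at 0.15 ± 0.09 and 0.00 ± 0.08, and the 3 genes summed to 374, 367 and 482 CPM in flox and 410.3, 421 and 430.3 in KO. The smallest fitted changes were those of Ndufa12 (0.00), Sdhd (0.02), Cox6b1 (-0.02), Atp5g3 (0.00), Uqcrc2 (0.04) and Ndufaf7 (0.03), and in complex II, where 0 of 4 passed by edgeR, DESeq2 or limma voom and 0 had an unadjusted p under 0.05, the largest was Sdhb (80.8, 87.6 and 99.1 against 115, 97.99 and 89.8 CPM, 0.18 ± 0.09, adjusted p = 0.133).

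Transcript length moved with the changes in this line. The 44 members with a transcript of at most 955 nt, the members' median, had a median change of -0.11 and the 43 longer ones 0.08. Among other coding genes the 725 short ones had a median of -0.11, with 7.59% higher and 21.7% lower, and the 12235 longer ones 0.00, with 18.2% higher and 17.99% lower. The short members deviated by 0.12, -0.09 and -0.06 in the KO libraries of this line and by 0.02, 0.03 and 0.28 in its flox libraries. Hif1a KO had medians of 0.04 for short and 0.11 for long members, with 6.82 and 20.9% called higher and 2.27 and 4.65% lower. Among other coding genes in that comparison, the short ones had a median of -0.06, with 12.8% higher and 19.0% lower. The longer ones had a median of 0.01, with 21.6% higher and 19.5% lower. The classes rest on the annotated length, by which Ndufb2 (4371 nt) and Uqcrq (1521 nt) counted as long. The part of transcript length in these changes was not tested.

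Set side by side, the lines targeted for Hif1a shared 6 members called in the same direction, which is 40.0% of the 15 called in Hif1a KO and 33.3% of the 18 called in Hif1a Ahr KO. They were Ndufv3, Cox7a1 and Ndufs3, which fell, and Cox5a, Cox7a2l and Ndufaf4, which rose. Ndufa10 was called in both with opposite directions. Of the 15 called in Hif1a KO, 13 had a fitted change of the same sign in Hif1a Ahr KO, and over all 87 members 59 did. Over all genes tested 2860 were called in the same direction in both, 48.3% of those called in Hif1a KO and 54.5% of those called in Hif1a Ahr KO, and the sign was the same for 83.1% of those called in Hif1a KO and 67.7% of all. The members' shares (86.7% and 67.8% for the sign) were thus below or close to those of all genes.

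**Figure D4:**
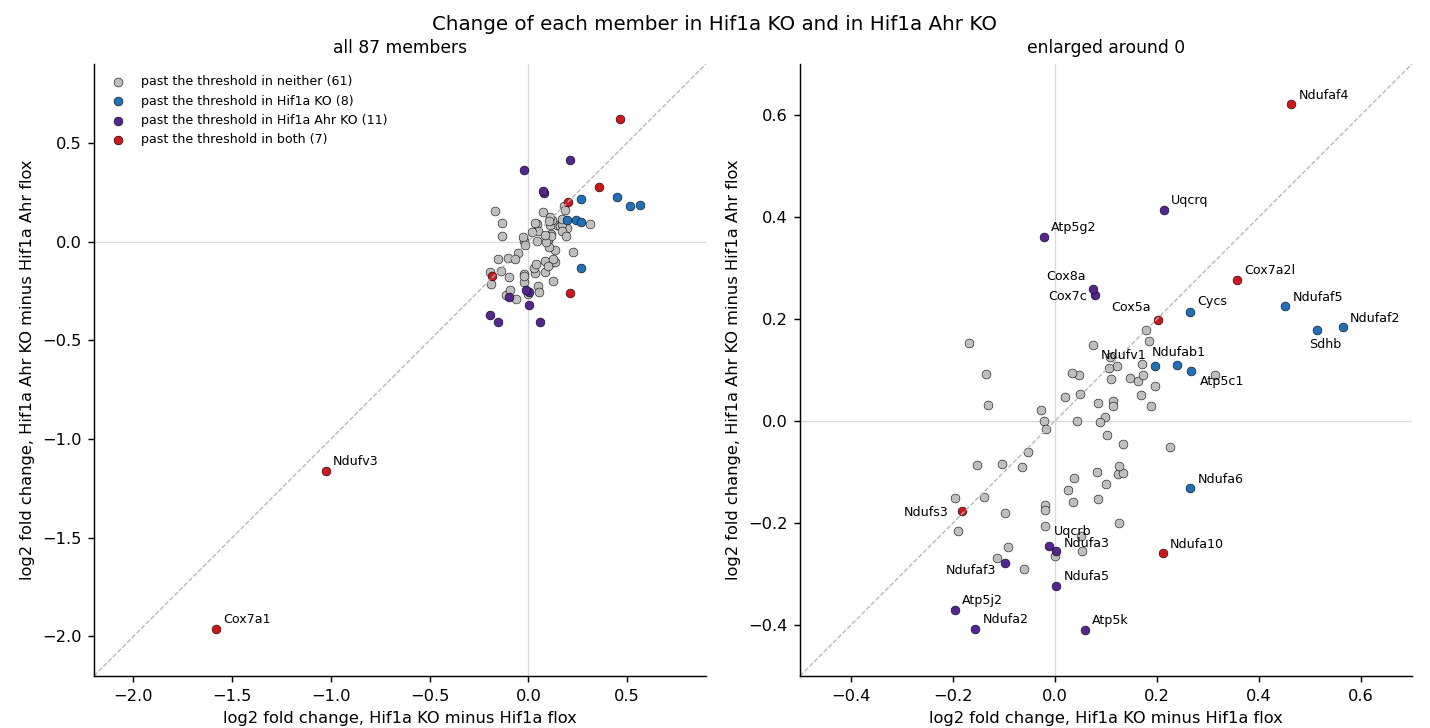
Fitted log2 fold change of each member in Hif1a KO (horizontal axis) against Hif1a Ahr KO (vertical axis), for all 87 members and enlarged around 0. Points on the dashed line changed equally. Ndufv3 and Cox7a1 lie far below 0 on both axes, and Ndufa10 lies on opposite sides.

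The difference between effects was tested as a contrast of its own. Between the Hif1a and the Ahr effect 15 of 87 members differed (17.2%), against 32.3% of all genes tested (16.6% with the Hif1a effect higher and 15.7% with it lower). For 13 the Hif1a effect was the higher, led by Sdhb (0.67 ± 0.12, adjusted p = 0.000403), Ndufaf5 (0.59 ± 0.13, adjusted p = 0.00153), Ndufa10 (0.50 ± 0.11, adjusted p = 0.00161), Ndufaf2 (0.69 ± 0.17, adjusted p = 0.00463) and Cox7a2l (0.46 ± 0.12, adjusted p = 0.00556), and it was lower for Ndufv3 (-1.06 ± 0.17, adjusted p = 0.000113) and Cox7a1 (-1.09 ± 0.30, adjusted p = 0.00988). The count was 9 when Hif1a KO replicate 3 or Ahr flox replicate 3 was left out, and 8 when Ahr flox replicate 2 or replicate 1 of Ahr KO was.

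Between the Hif1a Ahr and the Hif1a effect only Ndufa10 differed (1.15% of members), against 9.63% of genes (4.52% higher and 5.11% lower). Its difference was -0.47 ± 0.11, adjusted p = 0.0127. Without Hif1a Ahr KO replicate 1 the count was 14, and without that library and Hif1a Ahr flox replicate 3 it was 12. It was 2 without Hif1a KO replicate 3, Hif1a Ahr flox replicate 2 or Hif1a Ahr flox replicate 3. Between the Hif1a Ahr and the Ahr effect 5 members differed, 5.75% against 16.4% of genes (8.59% higher and 7.82% lower). The 5 were Ndufv3 (-1.19 ± 0.17, adjusted p = 9.58e-05), Cox7a1 (-1.46 ± 0.31, adjusted p = 0.00284), Cox7c (0.36 ± 0.10, adjusted p = 0.0185), Uqcrq (0.42 ± 0.13, adjusted p = 0.0277) and Cox7a2l (0.38 ± 0.12, adjusted p = 0.0332). That count was 18 without Hif1a Ahr flox replicate 3, 10 without Hif1a Ahr KO replicate 1, 22 without both, and 3 without Hif1a Ahr KO replicate 2 and likewise without the second or the third Ahr flox library or the first of Ahr KO.

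The departure of the Hif1a Ahr effect from the sum of both single effects passed for 0 of 87 members by edgeR, DESeq2 and limma voom, with 2 at an unadjusted p under 0.05 and 0.0358% of all genes called. Without Hif1a Ahr flox replicate 3 and Hif1a Ahr KO replicate 1 it passed for 2 members. Among the 3 flox groups, which differ by line and not by Cre, 0 members differed by the F test of edgeR or by DESeq2 or limma voom, with 11 at an unadjusted p under 0.05 and 0.245% of all genes called.

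The 13 chain subunits encoded in mitochondrial DNA moved apart from their nuclear partners. In Hif1a KO all 13 rose, with a median log2 change of 0.73. In Hif1a Ahr KO 12 of 13 were called higher by edgeR, with a median of 1.00. The exception was mt-Nd3 (0.50 ± 0.21, adjusted p = 0.0799), while DESeq2 and limma voom called all 13. Among the flox groups 1 of the 13 differed by each of these 3 tools. In Ahr KO 0 of 13 passed by edgeR, DESeq2 or limma voom and 3 had an unadjusted p under 0.05, with a median of 0.26. The smallest adjusted p-values belonged to mt-Co1 (0.68 ± 0.12 and 1.07 ± 0.13 in the lines targeted for Hif1a), mt-Co3 (0.82 ± 0.16 and 1.14 ± 0.16) and mt-Atp6 (0.84 ± 0.16 and 1.29 ± 0.16), subunits of complexes IV and V, followed by mt-Cytb (1.69 ± 0.22) in Hif1a Ahr KO and mt-Nd1 (0.61 ± 0.14) in Hif1a KO. The ratio of summed nuclear member counts to summed mitochondrially encoded counts was 0.450, 0.591 and 0.563 in Hif1a flox and 0.341, 0.352 and 0.319 in Hif1a KO. It was 0.511, 0.514 and 0.634 in Hif1a Ahr flox and 0.317, 0.238 and 0.242 in its KO group, and 0.510, 0.432 and 0.507 in Ahr flox against 0.430, 0.330 and 0.407 in Ahr KO. In each line the KO libraries lay below the flox libraries, in the Ahr line only just, with 0.430 as the highest KO value and 0.432 as the lowest flox value.

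**Figure D5:**
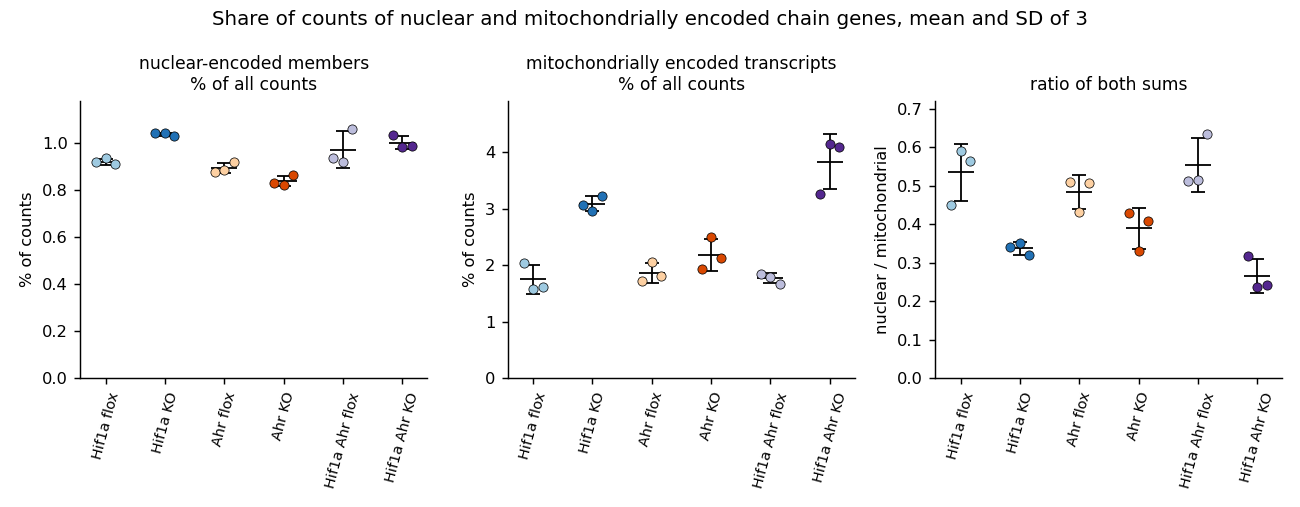
Share of all counts (%) of the 87 nuclear members and of the 13 mitochondrially encoded subunits, and the ratio of both, in each library by group, with the mean and SD of 3. The mitochondrially encoded share is 1.58 to 2.04% in Hif1a flox and 2.96 to 3.23% in Hif1a KO, while the nuclear share stays between 0.823 and 1.06% in every library.

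Genes around the chain were counted from lists chosen by function, and their shares are read against the 35.4, 6.92 and 31.3% of all genes called in Hif1a KO, Ahr KO and Hif1a Ahr KO. Of 42 tested assembly factors outside the rule 9 rose and 4 fell in Hif1a KO, 0 passed in Ahr KO by edgeR, DESeq2 or limma voom (2 at an unadjusted p under 0.05), and 9 rose and 6 fell in Hif1a Ahr KO. At 31.0 and 35.7% in the lines targeted for Hif1a, their shares were near those of all genes. The leading ones were Uqcc3 of complex III (-0.54 ± 0.11 in Hif1a KO), Cox15, which makes heme a (0.26 ± 0.06 and 0.29 ± 0.05), Taco1 (0.42 ± 0.09), Lyrm7 (0.69 ± 0.15 and 0.62 ± 0.15), Coa5 (0.39 ± 0.08 in Hif1a Ahr KO) and Cox20 (-0.43 ± 0.11). Of 21 regulators of mitochondrial biogenesis and transcription 3 rose and 3 fell in Hif1a KO, 1 rose in Ahr KO, and 5 rose and 4 fell in Hif1a Ahr KO, shares of 28.6, 4.76 and 42.9%. Ppargc1a, the coactivator of biogenesis, is expressed at 0.116 to 2.34 CPM and rose in both lines targeted for Hif1a (2.03 ± 0.29 and 2.40 ± 0.29). The mitochondrial DNA polymerase Polg rose in Ahr KO (0.34 ± 0.08, adjusted p = 0.0211) and Hif1a Ahr KO (0.63 ± 0.08), and Pprc1 in Hif1a Ahr KO (0.48 ± 0.10). Gabpa, a subunit of a factor that acts on many chain genes, fell in both (-0.19 ± 0.06 and -0.17 ± 0.06), while its partner Gabpb1 rose in both (0.17 ± 0.06 and 0.24 ± 0.06). Nrf1, another such factor, fell in Hif1a Ahr KO (-0.27 ± 0.07), Esrra fell in Hif1a KO (-0.26 ± 0.08), and Mterf3 rose in Hif1a KO (0.28 ± 0.08).

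Of 20 genes of ubiquinone synthesis and other entries to the chain 2 rose and 3 fell in Hif1a KO, 0 passed in Ahr KO by edgeR (3 at an unadjusted p under 0.05, 1 called by DESeq2 and by limma voom), and 4 rose and 3 fell in Hif1a Ahr KO, shares of 25, 0 and 35%. In Hif1a KO these were led by Prodh, proline dehydrogenase (-1.27 ± 0.18), Gpd2, the mitochondrial glycerol phosphate dehydrogenase (-0.87 ± 0.13), Coq10b (0.57 ± 0.10) and Coq4 (-0.62 ± 0.12). In Hif1a Ahr KO they included Coq10b (0.51 ± 0.10), Etfb (-0.45 ± 0.12), Coq10a (0.25 ± 0.07) and Pdss2 (0.33 ± 0.11), and Gpd2 and Prodh were at -0.25 ± 0.13 (0.172) and -0.10 ± 0.17 (0.706). Of 7 tested genes linked to oxygen-dependent remodelling of the chain 1 rose and 4 fell in Hif1a KO, 0 passed in Ahr KO by edgeR, DESeq2 or limma voom (1 at an unadjusted p under 0.05), and 2 rose and 2 fell in Hif1a Ahr KO, shares of 71.4, 0 and 57.1% of a short list. Mgarp (-4.81 ± 0.28 and -4.30 ± 0.27) and Higd1a (-0.89 ± 0.08 and -0.94 ± 0.08), both known targets of HIF, fell in the lines targeted for Hif1a, and the protease Lonp1 fell in Hif1a KO (-0.82 ± 0.12).

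Ndufa4, which the rule leaves out and which is now counted as a subunit of complex IV, rose in both (0.95 ± 0.12 and 0.78 ± 0.12), and Ndufa4l2 reached at most 0.193 CPM in any library (0.0568, 0.108 and 0.113 CPM in Hif1a flox and 0.0173, 0.0171 and 0 in Hif1a KO, adjusted p = 0.0125). Cox4i1, the main form of a complex IV subunit whose name the rule does not take, stood at 335 CPM and was at 0.11 ± 0.08 in Hif1a KO (0.343) and 0.23 ± 0.08 in Hif1a Ahr KO (0.0414). Its hypoxic isoform Cox4i2 was at 0 to 0.055 CPM and was not tested.

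The 9 genes below the limit were Ndufa11b, Ndufs6b, Cox6a2, Cox6b2, Cox6c2, Cox7b2, Cox8b, Cox8c and a second identifier of Atp5o. Cox6a2, the muscle form of its subunit, ranged over 0.127 to 1.51 CPM and Cox6b2, the testis form, over 0.161 to 0.765, and both passed the filter on low counts. Cox6a2 was higher in Hif1a KO (1.58 ± 0.50, adjusted p = 0.0198) and Hif1a Ahr KO (2.15 ± 0.55, adjusted p = 0.00643), and Cox6b2 lower in Ahr KO (-1.20 ± 0.34, adjusted p = 0.0411) and Hif1a Ahr KO (-1.21 ± 0.35, adjusted p = 0.013). Both rest on few counts. Ndufb1-ps, left out for its name, stood at a mean of 36.8 CPM, about that of the complex I subunit Ndufs5 (36.7). Members with close copies, such as Ndufb4 and Ndufb4c or the Atp5g genes, share sequence, and how the counting split their reads is uncertain.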

How the data were processed

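Per the labels, polyadenylated RNA was sequenced from strand-specific libraries on a DNBSEQ instrument. Per the submitters' processing notes, Trim Galore 0.6.4, kallisto 0.4.6, edgeR 3.17 and the build GRCm39 were used. The transcript annotation and the strand setting of the counting are not given in the sources used here. The authors deposited, for each library, estimated counts per gene, as kallisto, named in the processing notes, yields, and log2 CPM values. A prior count of 2 gave those log2 CPM values back from the counts (largest difference 6.2e-15), so all tests started from the counts. A symbol was matched to 52029 of 56953 identifiers, and those without one held 0.315% of counts.

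Counts were tested with edgeR 4.0.16 in R 4.3.3: TMM scaling, filterByExpr by group, robust quasi-likelihood F tests on 6 group means over 18 libraries (12 residual degrees of freedom, common BCV 0.117), two-sided, with Benjamini-Hochberg adjustment over all 16747 genes tested. A gene was called at an adjusted p under 0.05. Library values in the text are CPM after TMM scaling, shares use unscaled counts, and errors of log2 changes are standard errors. Differences of effects, the departure from the sum and the differences among flox groups were contrasts of this fit. Alternatives were DESeq2 1.42.0 on rounded counts, limma 3.58.1 with voom, other scalings and filters, a replicate block, and leaving out libraries. The edgeR fit of the Hif1a comparison was tested on simulated counts with known changes, and the other tests and steps were not. The labels call replicates biological but do not say whether they come from separate animals, so p-values measure the spread between these libraries. Depth was similar in all libraries, and the median standard error of a member's log2 change in the Hif1a comparison was 0.0818.

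Same-numbered flox and KO libraries deviated together in the Hif1a line (correlation 0.296 to 0.530 over genes) and the Ahr line (0.333 to 0.534), which pairs them, but not in every pair of the Hif1a Ahr line (0.0671 to 0.448). Transcript length and gene order are from GENCODE M21, promoters from RefSeq (GRCm38.p6), which has an entry for 73 members and none for 14. Genes named are up to 6 called members per complex, direction and comparison, those with the largest and smallest change, those of highest and lowest level, and the leading genes of each list. Some results for single genes are not reported here. The members and lists were chosen with earlier results of these data known.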

Additional observations from a re-analysis of the deposited data

Results flagged for a closer look

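Members whose effect differed between lines, by the contrast of both effects in edgeR, are given here with the difference of log2 changes and its adjusted p. The Hif1a effect lay above the Ahr effect for Ndufaf2 (0.694, adjusted p = 0.00463), Sdhb (0.674, 0.000403), Ndufaf5 (0.589, 0.00153), Ndufa10 (0.50, 0.00161), Cox7a2l (0.464, 0.00556) and Ndufa6 (0.393, 0.0414). It was also above for Atp5c1 (0.314, 0.0349), Ndufb5 (0.307, 0.0222), Ndufa9 (0.296, 0.0159), Atp5f1 (0.281, 0.0437), Ndufv2 (0.268, 0.0433) and Uqcrfs1 (0.236, 0.0347). Of these members, Ndufb5, Ndufa9, Atp5f1, Ndufv2 and Uqcrfs1 were called in neither line alone.

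For Cox7a1 (-1.09, adjusted p = 0.00988) and Ndufv3 (-1.06, 0.000113) the Hif1a effect lay below the Ahr effect. The Hif1a Ahr effect lay below the Ahr effect for the same genes, Cox7a1 (-1.46, 0.00284) and Ndufv3 (-1.19, 9.58e-05), and above it for Uqcrq (0.424, 0.0277), Cox7a2l (0.384, 0.0332) and Cox7c (0.364, 0.0185). Ndufa10 was the single member for which the Hif1a Ahr effect differed from the Hif1a effect (-0.47, adjusted p = 0.0127). It was higher in all 3 Hif1a KO libraries than in Hif1a flox and lower in all 3 Hif1a Ahr KO libraries than in Hif1a Ahr flox. Both comparisons with the Ahr effect use the same Ahr libraries.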

How the results depend on the processing

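Medians of log2 changes in Hif1a KO depended on scaling: by total counts alone they were 0.176 over all members, 0.175, 0.170, 0.153, 0.176 and 0.160 for complexes I to V, 0.363 for cytochrome c and 0.300 for the Ndufaf factors, whose median was 0.0846 among members of at least 10 CPM and -0.0519 in Ahr KO by total counts. Calls by total counts were 36 higher in Hif1a KO, 2 lower in Ahr KO, and 11 higher and 6 lower in Hif1a Ahr KO, where the share of higher calls among all genes was 55.9% in place of 47.3%. With only the 6 libraries of a line, 23 were higher and 7 lower in Hif1a KO, and 2 higher and 2 lower in Hif1a Ahr KO. The Hif1a Ahr effect differed from the Hif1a effect in 2 members by DESeq2 or with a mean of at least 5 CPM, and from the Ahr effect in 9 by DESeq2.

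Replicate numbers did not pair the Hif1a Ahr line by the rule used, although each of its KO libraries correlated best with the flox library of its number (flox replicate 1 did so with KO replicate 3). With the replicate block 18 members were lower in Hif1a Ahr KO, and 4 and 8 differed between the Hif1a Ahr effect and the Hif1a and Ahr effects. In the lines that the numbers do pair, the block gave 14 higher and 3 lower in Hif1a KO and 1 lower in Ahr KO. Between the Hif1a and Ahr effects 20 members differed with the block, in place of 15.

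Leaving out 1 library gave 5 to 8 higher and 2 to 3 lower members in Hif1a KO, 0 to 1 lower in Ahr KO, and 3 to 21 higher and 3 to 27 lower in Hif1a Ahr KO. It gave 8 to 17 members that differed between the Hif1a and Ahr effects, 1 to 14 between Hif1a Ahr and Hif1a, and 3 to 18 between Hif1a Ahr and Ahr. Medians in Hif1a KO ranged over 0.0415 to 0.0978 in complex I, 0.0387 to 0.0999 in III and 0.0272 to 0.107 in IV. Without both Hif1a Ahr flox replicate 3 and KO replicate 1, chosen after seeing the data, 20 were higher and 19 lower, 12 and 22 differed from the Hif1a and Ahr effects, 2 departed from the sum, and the complex II median was 0.138. The cause of these shifts was not tested. Among members called in at least 1 setting of a comparison, 1401 values kept their side of the threshold, 139 gained and 128 lost a call, and 0 of those calls reversed. Members that a comparison never called were not counted there. Differences of effects were not run under other scalings by total counts.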
